A study of Mus musculus with 6 samples.

Results

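The genes described here carry glucose from its uptake into the cell to lactate, store it as glycogen, or belong to the core response to low oxygen. The set named 40 genes, and every probe set whose annotated symbol was among them was used. Of the 40 genes, 36 had a probe set of their own, out of 12394 genes with one on the array, and these 36 had 73 of the 22690 probe sets. Signals of 34 were tested. Gpi1, Eno1 and Ankrd37 are not analysed here, and the probe sets of Bnip3l are annotated to a pseudogene as well and were not assigned. Gapdh had 2 further probe sets and Hk1 had 1 that list another symbol too, and these were not assigned either. Gapdh was therefore read here only by control probe sets of the array, which stayed out of the test. Gbe1, the glycogen branching enzyme, lay below the limit of 10 fluorescence units in both groups, with a control mean of 6.78 ± 1.70 units and an E2 mean of 9.87 ± 3.32 units (SD, 3 arrays each).

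The cells were mesenchymal cells of the urogenital sinus (UGS), the fetal tissue that gives rise to the prostate, from male CD-1 mice at gestation day 17. CD-1 is an outbred stock. Cells of both groups were used at first passage and grown in medium with charcoal-stripped fetal bovine and horse serum, insulin, transferrin, selenium and 690 pM dihydrotestosterone (DHT), an androgen that cells do not convert to estrogen. After 3 days without estrogen, the E2 group received 100 nM estradiol (E2) for 4 days and the control group the 0.05% ethanol vehicle. Each group had 3 samples, each hybridized to an Affymetrix mouse expression array, whose probe sets turn the abundance of a transcript into a fluorescence signal. Nothing states whether the 3 samples of a group came from separate cultures or litters, so that p-values here reflect no more than the variation among these 6 samples, part of which may be technical. The seeding density is known, but the sources used here do not give cell number, oxygen or lactate at harvest.

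Glycolysis splits glucose into pyruvate in the cytosol, and lactate dehydrogenase turns the pyruvate into lactate when it does not enter mitochondria. Glycogen is the polymer in which cells keep glucose in reserve. When oxygen is low, the prolyl hydroxylases that mark the transcription factor HIF1A for destruction slow down, and HIF1A switches on a set of genes that includes many glycolytic enzymes, glucose transporters and its own hydroxylases. Dense cultures can use oxygen faster than it reaches the cells, and these genes are known to respond to crowding.

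Values below are signals after each array was scaled to a common median. The difference of a gene is the log2 signal in E2 minus that in control, taken from its brightest probe set, and its test is limma adjusted by Benjamini-Hochberg over all 14223 probe sets tested. Array medians as deposited ran from 13.8 to 21.9 units by array (control replicate 3 and E2 replicate 2 had the lowest), and array-to-array correlations were 0.934 to 0.960 within groups and 0.922 to 0.950 between them. The same 2 arrays stood apart in 18S ribosomal RNA, with 350 and 366 units on the control probe set near its 5′ end against 21.97 to 45.6 units on the others, all after scaling. The markers of mesenchyme were bright, with sums over 10 genes of 20169 to 22724 units in control and 19269 to 20597 units in E2.

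Glycolysis, glycogen and hypoxia genes had, in most cases, a slightly higher signal in E2 than in control, and none of them passed the test. The difference was above 0 for 28 of the 34 genes tested (82.4%), against 43.8% of all 8246 genes tested, and its median was 0.23 against -0.03 for all genes. None of the 34 rose and none fell at an adjusted p under 0.05 by limma, where 0.570% of all genes rose and 0.340% fell, and 0.745% of all probe sets changed in either direction. The lowest adjusted p among them was 0.154, for Bnip3. At an unadjusted p under 0.05, 8 were higher in E2, against 3.57% of all genes, and 0 were lower, against 4.73%. These 8 were Bnip3, Pfkl, Pgm1, Ero1a, Egln1, Ldha, Tpi1 and Slc2a1. In 11 genes each E2 array was above each control array, as in 5.98% of all genes, and in 1 gene, Pdk4, each was below, as in 8.55%. At a 1.5-fold change with an unadjusted p of 0.05 or less, 0 genes were higher and 0 lower, against 2.00% and 1.92% of all genes. The count of 8 was 4 without control replicate 2 or without E2 replicate 3, 5 without control replicate 1, 15 without the pair of arrays with high 18S signal, and 0 on the values as deposited. Without that pair of arrays, 31 of the 34 differences were above 0 and their median was 0.28, against 0.03 for all genes.

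**Figure D1:**
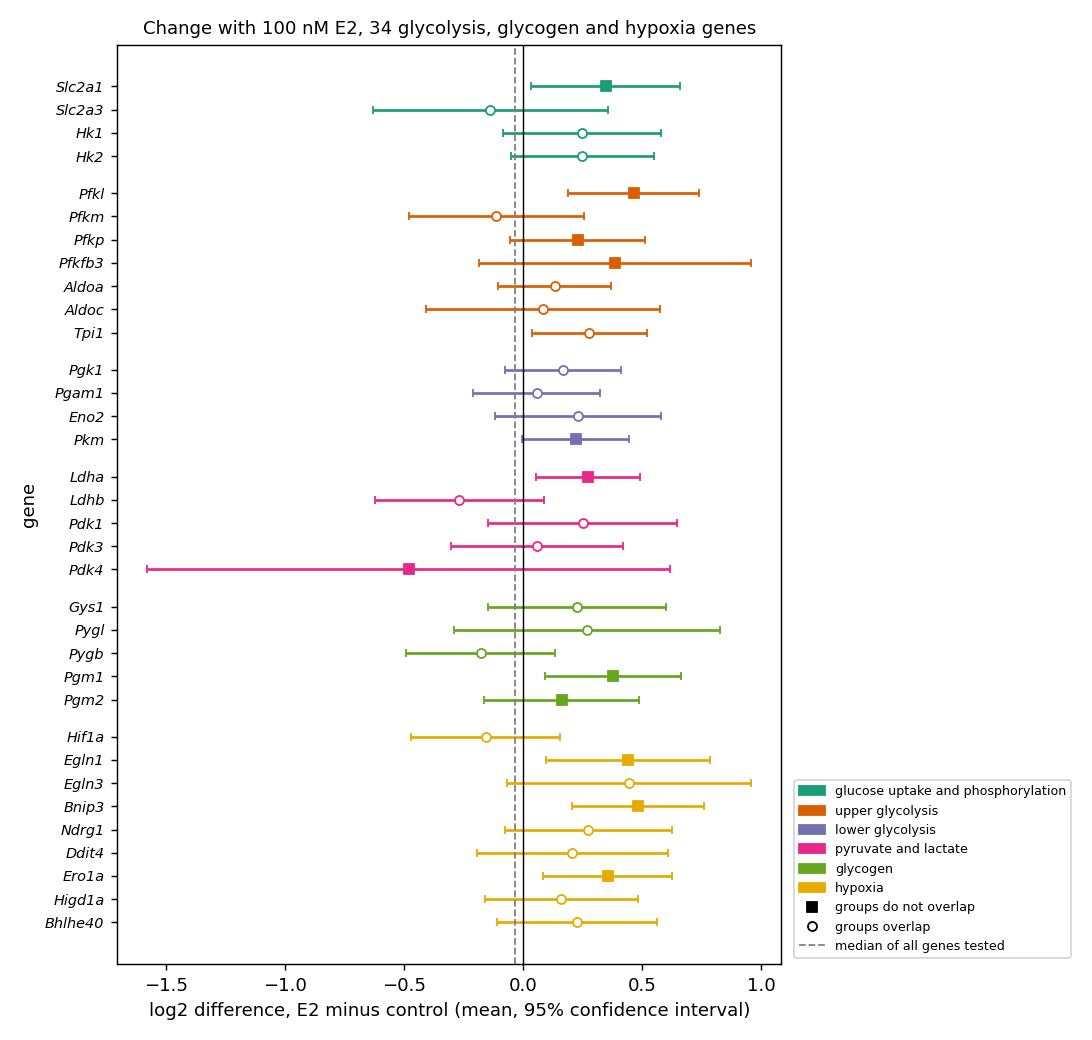
Log2 difference of each of the 34 genes tested (E2 minus control, horizontal axis) with its 95% confidence interval, grouped by role. Filled squares mark genes whose 3 E2 arrays do not overlap with the 3 control arrays, open circles those that overlap, and the dashed line is the median of all genes tested, at -0.03. Most points lie between 0 and 0.5, and Pdk4 has the lowest value, at -0.48.

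The same shares were taken over brighter genes. Of the 2586 genes of at least 100 units, 37.8% had a difference above 0, 4.91% lay above control on each E2 array and 4.10% were higher at an unadjusted p under 0.05. With the filter at 100 units, 20 of the 34 genes remained. Of these, 17 had a difference above 0 and 8 were higher at an unadjusted p under 0.05 by limma. Egln1 and Bhlhe40 are among the 20 only through E2. By role, the median difference was 0.25 for the 4 genes of glucose uptake and phosphorylation, 0.23 for the 7 of upper glycolysis, 0.19 for the 4 of lower glycolysis, 0.06 for the 5 of pyruvate and lactate handling, 0.23 for the 5 of glycogen and 0.27 for the 9 of hypoxia. The first 3 groups together, 15 genes of glycolysis, had a median of 0.23. Genes with a difference below 0 were Slc2a3, Pfkm, Ldhb, Pdk4, Pygb and Hif1a.

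The genes were also followed on single arrays. On the 3 control arrays the median log2 signal of the 34 genes, relative to each gene's control mean, was -0.03, -0.03 and 0.04. On the 3 E2 arrays it was 0.20, 0.16 and 0.30. The median of all genes was 0.03, -0.12 and 0.02 on the same E2 arrays, so that the 34 genes lay above it on each of them. For the hypoxia genes alone the E2 arrays gave 0.24, 0.17 and 0.49, and for the glycogen genes 0.11, 0.16 and 0.31. In both groups of genes E2 replicate 3 was the highest of the 6 arrays, and no E2 array lay within the control range. The genes of pyruvate and lactate handling gave 0.22, -0.02 and -0.05 on the E2 arrays and 0.00, -0.02 and 0.11 on the control arrays, with E2 on both sides of control. Those of lower glycolysis gave 0.17, 0.11 and 0.24 against -0.09, -0.07 and 0.12, so that E2 replicate 2 lay just below control replicate 3.

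Of 20 cell cycle genes tested, which mark dividing cells, 0 rose and 0 fell by limma, with 0 at an unadjusted p under 0.05. The difference was above 0 for 16 of the 20 (80.0%), beside 82.4% of the 34 genes. Their median was 0.11, and 0.17, -0.02 and 0.05 on the 3 E2 arrays. The smallest p-values were those of Rrm1, a subunit of ribonucleotide reductase, with a difference of -0.22, Ccna2, a cyclin, with 0.24, and Aurka, a mitotic kinase, with 0.26. Markers of other cell types were summed on each array. The summed signal of 11 epithelial markers was 62.7 to 105 units in control and 149 to 166 units in E2. Of its 4 tested members Krt18, a keratin, rose from 39.7 to 73.0 units (limma, adjusted p = 0.0424), and the other 3 were keratins that passed the limit of 10 units only through E2. The 7 others, with Epcam and Cdh1, which define epithelium, had means below 10 units in both groups. The summed signal of 16 macrophage markers was 759 to 1272 units in control and 706 to 825 units in E2, overlapping between the groups. All 15 tested were below 0, where 43.8% of all genes were above it, and none passed the test. At an unadjusted p under 0.05 by limma, 4 were lower (4.73% of all genes), and 3 were so at 1.5-fold (1.92%). On each E2 array 4 lay below control (8.55%). The lowest adjusted p by limma was 0.0630, for C1qb at -1.24. Aif1 passed the limit of 10 units only through control. For 9 endothelial markers the sums were 91.2 to 112 units in control and 105 to 113 units in E2, also overlapping. The part of cell density or of these other cells in the differences was not tested, and in bulk RNA fewer cells of a type and less RNA per cell cannot be told apart.

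**Figure D2:**
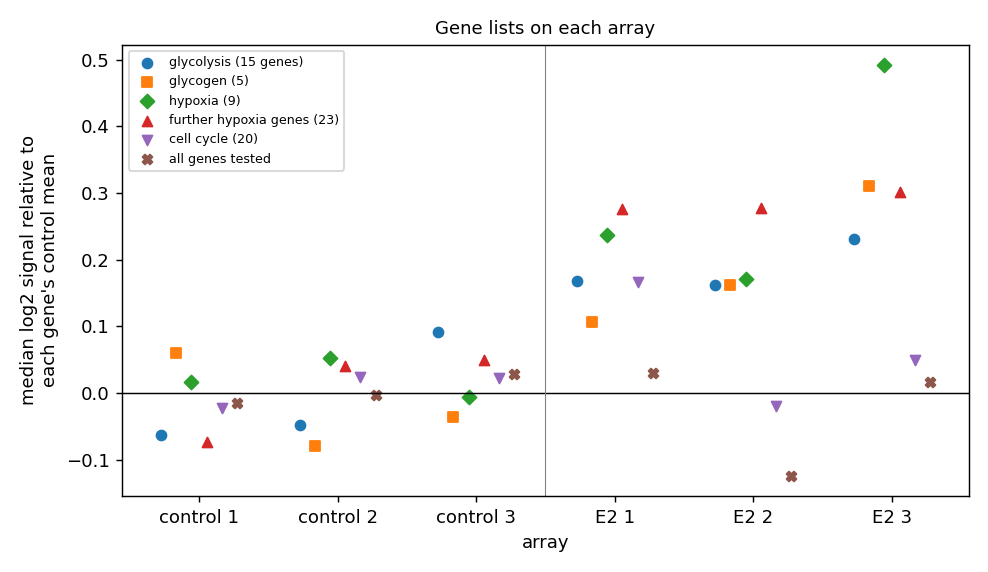
Median log2 signal of 6 lists of genes on each array (vertical axis, relative to each gene's mean over the control arrays; n of genes in the legend). Glycolysis, glycogen, hypoxia and further hypoxia genes lie above 0.1 on each E2 array, while cell cycle genes lie at -0.02 to 0.17 and all genes at -0.12 to 0.03.

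Promoters of these genes are shown because the hypoxia response acts through a short DNA word. HIF factors bind ACGTG or GCGTG, and E2 receptors an estrogen response element, which is GGTCA, 3 bases of any kind and TGACC. The RefSeq table (build GRCm38.p6) held 49 promoters for 36 of the 40 named genes, taken whether or not the gene was tested. In the 250 bases before the start, on either strand, ACGTG was present in 24 of these 49 (49%). It was present in 16.6% of all 32851 mouse promoters of that table. GCGTG was present in 27 of the 49 (55.1%) and in 28.2% of all. The named genes include known targets of HIF1A, so that these shares reflect how the genes were chosen. They do not measure a response to E2. CACGTG, which contains ACGTG and is also the word of other factors, was in 5 (10.2%) and in 6.02% of all. The full estrogen response element was in 0 of the 49 and in 0.0639% of all. With so rare a word a count of 0 among 49 was likely beforehand, and it says nothing about the action of E2. The promoters of these genes were also richer in G and C, with a median of 60.4% against 52.4% for all, and no promoters of matched composition were compared. Of the 8 genes with an unadjusted p under 0.05, 6 held ACGTG, and so did 15 of the 28 other genes, which include genes that were not tested. A match is a string of letters in a window, not a bound site. The 60 bases around ACGTG in these 6 promoters are printed 5′ to 3′ on the strand of the gene, with ACGTG or its reverse complement CACGT in capitals (CACGTG where they overlap).
Slc2a1, chr4:119108681-119108740, + strand: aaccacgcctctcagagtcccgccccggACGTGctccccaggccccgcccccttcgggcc
Pgm1, chr4:99929242-99929301, + strand: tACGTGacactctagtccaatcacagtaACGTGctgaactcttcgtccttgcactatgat
Ldha, chr7:46845742-46845801, + strand: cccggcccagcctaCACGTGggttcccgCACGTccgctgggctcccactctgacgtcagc
Egln1, chr8:124949291-124949350, - strand: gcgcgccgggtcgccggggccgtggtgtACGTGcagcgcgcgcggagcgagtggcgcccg
Bnip3, chr7:138909582-138909641, - strand: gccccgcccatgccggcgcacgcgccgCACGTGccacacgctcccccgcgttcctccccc
Ero1a, chr14:45318604-45318663, - strand: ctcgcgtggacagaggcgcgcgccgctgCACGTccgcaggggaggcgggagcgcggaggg

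Slc2a1 encodes a glucose transporter found in most cells. Its signal was 131, 162 and 168 units in the control samples and 172, 203 and 209.7 units in the E2 samples. No overlap was present, but control replicate 3 and E2 replicate 1 were almost level. The difference was 0.35 ± 0.15 (SE), a 1.27-fold change (95% confidence interval 1.02 to 1.58), with an adjusted p of 0.576 by limma. Its other probe sets gave 0.36 and 0.48, again without overlap. Slc2a3, a transporter of high affinity, had 59.5, 73.5 and 50.7 units in control and 66.9, 37.9 and 65.8 units in E2. The groups overlapped, the difference was -0.14, and its other tested probe sets disagreed with each other, at 0.52 and -0.40. The probe set at 0.52 overlapped and passed the limit of 10 units only through E2. On the probe set at -0.40 each E2 array was below each control array.

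Hexokinases trap glucose in the cell by adding a phosphate. Hk1 had 126, 127 and 116 units in control and 166, 119 and 156 units in E2. E2 replicates 1 and 3 were above the control range and E2 replicate 2 was within it (difference 0.25). Its other probe set gave 0.51 without overlap (unadjusted p = 0.0160 and adjusted p = 0.446 by limma), with E2 replicate 2 almost level with control. Hk2, the hexokinase that HIF1A switches on, had 181, 152 and 177 units in control and 175, 219.5 and 212 units in E2. Here E2 replicate 1 was within the control range and the others above it, and the difference was again 0.25. The array that stayed at the control level was therefore not the same one for the 2 enzymes.

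Phosphofructokinase commits glucose to glycolysis, and has 3 subunit genes. Pfkl, the liver-type subunit, had 198, 183 and 189.8 units in control and 285, 232 and 272 units in E2. All 3 E2 arrays were clear of the control range, and the difference was 0.46 ± 0.13, a 1.38-fold change (95% confidence interval 1.14 to 1.67; limma, adjusted p = 0.174). A second probe set gave 0.39. Pfkl passed the test, still at a difference of 0.50 to 0.52, with quantile normalization (adjusted p = 0.0409 by limma), scaling to a trimmed mean (0.0477) or array weights (0.0365). Pfkp, the platelet-type subunit, had 132, 131 and 143 units in control and 169, 151 and 156 units in E2. These were without overlap as well (difference 0.23 ± 0.13, adjusted p = 0.718 by limma), and a second probe set gave 0.46. Pfkm, the muscle-type subunit, had 70.2, 62.4 and 75.8 units in control and 69.2, 54.2 and 70.2 units in E2. The groups overlapped and the difference was -0.11. Pfkfb3 makes the sugar bisphosphate that activates phosphofructokinase. Its signal was low, with 15.9, 19.7 and 19.5 units in control and 22.4, 28.9 and 21.1 units in E2. Its groups did not overlap, but the interval of its 1.31-fold change ran from 0.879 to 1.94. On its second probe set the groups overlapped, with a difference of 0.15 (unadjusted p = 0.670 by limma).

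Aldolase cuts the sugar into a pair of trioses that triosephosphate isomerase interconverts. Aldoa, the main form, had 1194, 1207 and 1474 units in control and 1348, 1505 and 1379 units in E2. The groups overlapped on this probe set because control replicate 3 was high, and the difference was 0.13 ± 0.11. Its other 3 probe sets gave 0.23 with overlap, and 0.25 and 0.29 without overlap. The last had an unadjusted p of 0.0305 and an adjusted p of 0.573 by limma. Aldoc, the brain form, had 26.6, 29.7 and 27.6 units in control and 29.6, 24.0 and 36.5 units in E2, so that E2 lay on both sides of control. Tpi1, the isomerase, had 1352, 1276 and 1630.1 units in control and 1818, 1714 and 1609.9 units in E2. Only control replicate 3 and E2 replicate 3 crossed, by a small margin. The difference was 0.28 ± 0.11, a 1.21-fold change (95% confidence interval 1.03 to 1.43), with an adjusted p of 0.547 by limma. Its other probe sets gave 0.22 with overlap (unadjusted p = 0.149 by limma) and 0.23 without overlap (unadjusted p = 0.0515 by limma).

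The enzymes of lower glycolysis regain the energy spent above and end in pyruvate. Gapdh was read by 3 control probe sets, whose differences of 0.12, 0.03 and 0.05 were measured without a test, and on each of them the groups overlapped. Pgk1, the kinase that makes the first ATP, had 1181, 1149.8 and 1461 units in control and 1346, 1479 and 1413 units in E2. Control replicate 3 was again high and lay among the E2 arrays (difference 0.17 ± 0.11). Eno2, an enolase first known from neurons, had 59.0, 67.4 and 62.9 units in control and 74.8, 66.0 and 81.9 units in E2. E2 replicate 2 was within the control range and the others above it. Pkm, pyruvate kinase, had 992, 918 and 1084 units in control and 1203, 1110.0 and 1169 units in E2. The groups did not overlap, and the difference was 0.22 ± 0.10 (unadjusted p = 0.0538 and adjusted p = 0.633 by limma). Pgam1, the mutase between these steps, had a difference of 0.06, the smallest of the 4 tested genes of this group.

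**Figure D3:**
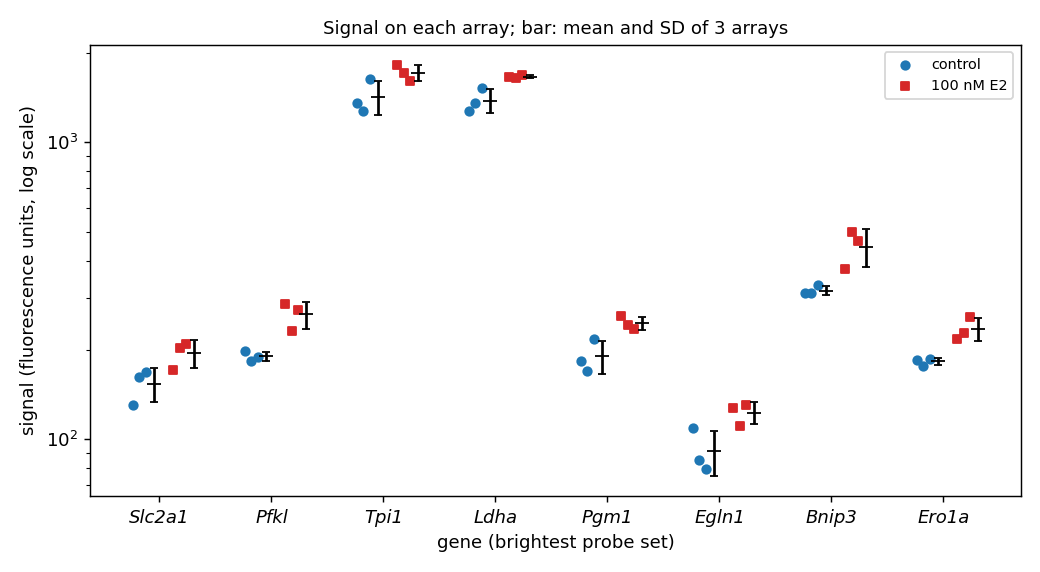
Signal on each array (vertical log axis, fluorescence units) of the 8 genes with an unadjusted p under 0.05 by limma; bars give the mean and SD of 3 arrays. In each gene except Tpi1 the 3 E2 arrays lie above the 3 control arrays, and the largest ratio of the means is that of Bnip3, 317 against 446 units.

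Lactate dehydrogenase has an A chain favored in cells that make lactate and a B chain favored in cells that burn it. Ldha had 1270.3, 1357 and 1519.8 units in control and 1660.0, 1648 and 1683 units in E2. The E2 arrays lay close together and above every control array. The difference was 0.27 ± 0.10, a 1.21-fold change (95% confidence interval 1.04 to 1.40), with an adjusted p of 0.466 by limma, and it passed with quantile normalization (difference 0.36, adjusted p = 0.0231 by limma). Ldhb had 307, 268 and 348 units in control and 286, 194 and 296 units in E2. E2 replicate 2 was the lowest and the groups overlapped, with a difference of -0.27 ± 0.17. All 4 of its probe sets gave differences below 0, from -0.27 to -0.20. On the probe sets at -0.26 (unadjusted p = 0.0511 by limma) and -0.20, each E2 array was below each control array. Without control replicate 3 and E2 replicate 2, the 2 arrays of high 18S signal, the difference of the brightest probe set was 0.02.

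Pyruvate dehydrogenase kinases switch off the entry of pyruvate into mitochondria. Pdk1, which HIF1A induces, had 60.7, 65.8 and 46.4 units in control and 66.4, 77.9 and 60.2 units in E2. The groups overlapped (difference 0.25 ± 0.19). Pdk3 had 63.9, 74.2 and 77.2 units in control and 87.5, 70.5 and 66.9 units in E2, overlapping with a difference of 0.06. Pdk4, known for its response to fasting, had 11.5, 10.3 and 9.83 units in control and 8.996, 5.81 and 8.18 units in E2. It passed the limit of 10 units only through control and had a difference of -0.48 with an interval from -1.58 to 0.62. Its groups did not overlap.

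Glycogen is built from glucose that phosphoglucomutase turns toward storage and is taken down by phosphorylase. Pgm1 had 184, 169.8 and 217 units in control and 261, 242 and 235 units in E2. The groups did not overlap, with control replicate 3 nearest to E2. The difference was 0.38 ± 0.13, a 1.30-fold change (95% confidence interval 1.06 to 1.58), with an adjusted p of 0.417 by limma. Pgm2, its relative, had 72.9, 66.6 and 70.3 units in control and 75.3, 78.2 and 81.2 units in E2. These groups did not overlap either, but by less, with a difference of 0.16 ± 0.15. Mouse Pgm1 and Pgm2 have had their names exchanged in the past, and the current names are used. The synthase Gys1 gave 0.23 by its brightest probe set, where the groups overlapped, and -0.52 by the other, without agreement in direction. On that other probe set each E2 array was below each control array (unadjusted p = 0.0312 and adjusted p = 0.576 by limma). Pygl, the liver-type phosphorylase, had 32.0, 20.1 and 24.4 units in control and 36.3, 22.97 and 32.8 units in E2. Pygb, the brain type, had 172, 145 and 145 units in control and 148, 118 and 143 units in E2. Both overlapped, with differences of 0.27 and -0.18.

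The hypoxia genes held the largest difference above 0 of the 34. Bnip3, a mitochondrial protein that marks mitochondria for removal, had 309.8, 311 and 329.8 units in control and 373, 499.9 and 464 units in E2. The control arrays lay close together and each E2 array was above them, E2 replicate 1 by the least. Its control mean was 317 ± 11.3 units and its E2 mean 446 ± 65.3 units (SD, 3 arrays each), a difference of 0.48 ± 0.13 and a 1.40-fold change (95% confidence interval 1.15 to 1.69; limma, adjusted p = 0.154). Over the arrays left out in turn this difference stayed above 0, and without E2 replicate 1 it was 0.61 (adjusted p = 0.0941 by limma).

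Egln1 and Egln3 are the oxygen-sensing prolyl hydroxylases. Egln1 had 109, 85.0 and 79.6 units in control and 127, 111 and 130.4 units in E2. The groups did not overlap, though control replicate 1 and E2 replicate 2 were almost level. The difference was 0.44 ± 0.16, with an adjusted p of 0.445 by limma, and a second probe set gave 0.68 (adjusted p = 0.192). Egln3 had 41.3, 43.2 and 28.0 units in control and 36.5, 56.8 and 60.7 units in E2. E2 replicate 1 was within the control range, and the difference was 0.45 ± 0.24. Without E2 replicate 1 it was 0.67.

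Ero1a, which drives disulfide formation in the endoplasmic reticulum and was formerly named Ero1l, had 185, 177 and 187 units in control and 218, 229 and 258 units in E2. The groups were well apart on this probe set, and its other probe sets gave 0.30 and 0.37 beside the 0.35 ± 0.13 of the brightest (adjusted p = 0.422 by limma). Hif1a, the regulated subunit of the factor itself, had a difference of -0.16 by its brightest probe set and 0.17 and 0.18 by the others, overlapping on each. Its activity is set mainly by the stability of the protein, which arrays do not read. The rest of the hypoxia genes overlapped, with differences of 0.16 for Higd1a, a protein of the mitochondrial inner membrane, 0.21 for Ddit4, an inhibitor of growth signaling, 0.23 for Bhlhe40, a repressor of transcription, and 0.27 for Ndrg1, a stress gene. The other probe sets of Ndrg1 gave -0.20, 0.18, 0.01 and 0.02, overlapping on each. Of 18 genes with several tested probe sets, 14 had the same direction on all of them, and Gys1, Hif1a, Ndrg1 and Slc2a3 did not. The 14 include Pdk1 and Higd1a, each with a probe set that passed the limit of 10 units only through E2. This share was not counted over all genes.

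Whether forms of the same enzyme moved apart was tested on 11 pairs by their difference of log2 signals on each array, with a two-sided exact permutation test of 3 arrays against 3, whose smallest p is 0.1. Since no pair could pass the threshold at this size, the values are given as measured. The groups did not overlap in 5 pairs, each with an exact p of 0.1 (adjusted 0.22 over the 11 pairs). Among single genes over the whole array, 5.98% were without overlap with E2 above and 8.55% with E2 below. That share was not counted over other pairs, and the 11 pairs share genes, such as Pfkl and Pdk1. Pfkl exceeded Pfkm by 0.58 and Pfkp by 0.24 in its change. The gap to Pfkp depends on the probe set. The second probe set of Pfkp gave 0.46, beside 0.46 for the brightest of Pfkl and 0.39 for its second. Ldha exceeded Ldhb by 0.54, Pdk1 exceeded Pdk4 by 0.73 and Pygl exceeded Pygb by 0.45. The value for Pdk4 rests on signals of 5.81 to 11.5 units, around the limit of 10 units, which it passed only through control. The pair of Ldha and Ldhb gave 0.36, 0.92 and 0.33 on the E2 arrays and -0.12, 0.17 and -0.05 on the control arrays, so that E2 replicate 2 stood out. The pair of Pfkl and Pfkm gave 0.59, 0.64 and 0.50 against 0.04, 0.10 and -0.13, with the E2 arrays close together. The other 6 pairs overlapped, and Hk2 and Hk1 differed by 0.00 in their change.

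**Figure D4:**
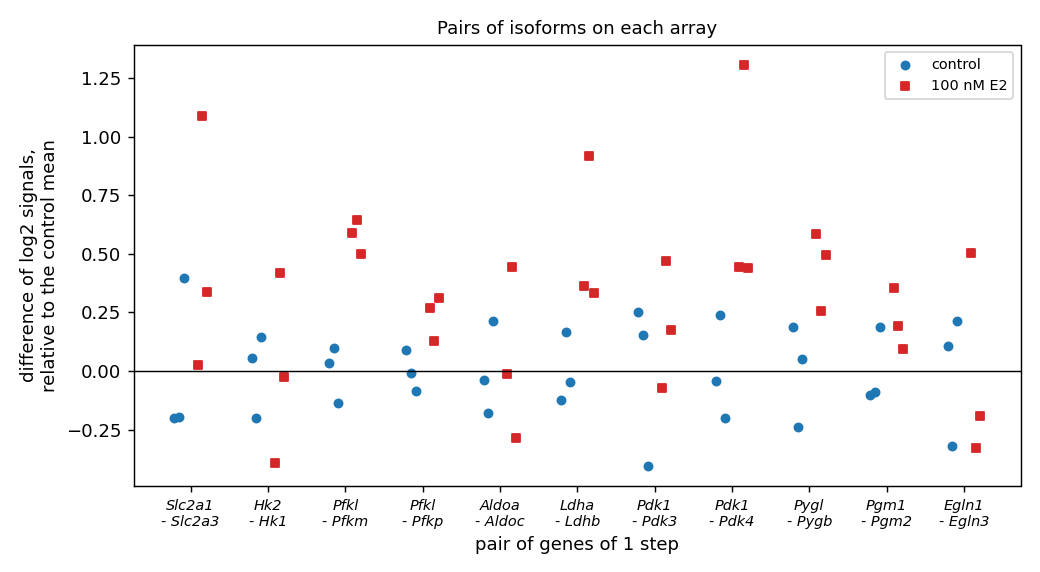
Difference of log2 signals between the genes of 11 pairs on each array (vertical axis, relative to the mean of the control arrays; 3 control and 3 E2 arrays per pair). Each gene is read by its brightest probe set. The groups do not overlap for Pfkl with Pfkm, Pfkl with Pfkp, Ldha with Ldhb, Pdk1 with Pdk4 and Pygl with Pygb.

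Beyond the 40, other genes of the same pathways were measured. Of 27 further genes of the hypoxia response, 23 were tested, of which 1 rose and 0 fell by limma. This was Tmem45a, a membrane protein, with 93.4, 94.4 and 104 units in control and 189, 191 and 200.0 units in E2. The groups were far apart, and the difference was 0.99 ± 0.13, a 1.99-fold change (95% confidence interval 1.63 to 2.42; limma, adjusted p = 0.00152). On the values as deposited it was not called (adjusted p = 0.519 by limma), nor without the variance trend (0.0752). Of the 23 genes, 19 had a difference above 0 (43.8% of all genes). At an unadjusted p under 0.05, 7 were higher and 0 lower (3.57% and 4.73% of all genes), and 12 lay above control on each E2 array (5.98% of all genes). The 19 and the 12 include Car9, which passed the limit of 10 units only through E2. The median of the 23 genes was 0.27, beside 0.27 for the 9 hypoxia genes above and -0.03 for all genes. This list was chosen with earlier results of these data known. Its counts and median are therefore no independent check on the 9 genes.

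Slc16a3, a lactate exporter, had 36.2, 58.8 and 40.1 units in control and 88.1, 62.2 and 93.7 units in E2. The groups did not overlap, with E2 replicate 2 just above control replicate 2, and the difference was 0.86 ± 0.22 (adjusted p = 0.122 by limma). Plod2, which hydroxylates collagen lysines, had a difference of 0.43 (adjusted p = 0.133 by limma) and passed with quantile normalization (0.0231), the trimmed mean (0.0346), array weights (0.0308), without E2 replicate 2 (0.0460) and without the arrays of high 18S signal (0.0400). Fam162a, a mitochondrial protein, had a difference of 0.42 (adjusted p = 0.161 by limma). Arnt, the partner of HIF1A, had a difference of -0.38, Vhl, which tags HIF1A for degradation, 0.06, and Egln2, a further prolyl hydroxylase, 0.10. Car9, a classic hypoxia marker, was above 10 units in E2 only, with means of 6.52 and 12.6 units.

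**Figure D5:**
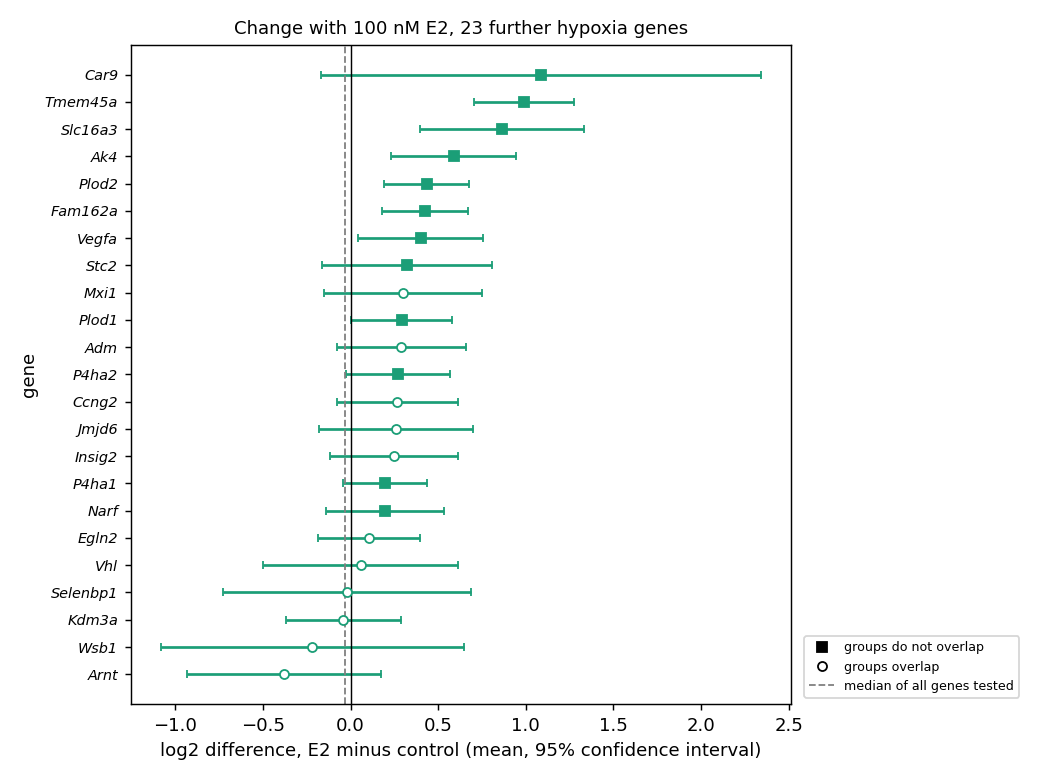
Log2 difference (E2 minus control, horizontal axis) with its 95% confidence interval for 23 further hypoxia genes. Filled squares mark the 12 genes whose E2 arrays all lie above control, among them Car9, tested only through its E2 signal. Tmem45a, at 0.99, is the gene that passed the test.

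Neighboring pathways had medians slightly below 0, as had all genes tested (-0.03). Their difference from the 34 genes or from all genes was not tested. Of 11 further glycogen genes tested, 0 rose and 0 fell by limma, with 0 at an unadjusted p under 0.05, and their median was -0.08. Ppp1r3c, which targets a phosphatase to glycogen, had the smallest p, with a difference of 0.67 (unadjusted p = 0.0654 by limma), followed by Phkb, a subunit of phosphorylase kinase, at -0.42 and Gaa, the lysosomal glucosidase, at -0.22. Of 8 genes of pyruvate entry and lactate transport, 0 passed, with a median of -0.09. On the 3 E2 arrays their median was -0.13, -0.22 and 0.14, beside 0.03, -0.12 and 0.02 for all genes. In 7 of the 8 the difference was below 0, where 43.8% of all genes were above it. The exception was Slc16a1, a lactate and pyruvate transporter, with 33.6, 50.5 and 49.5 units in control and 63.4, 66.5 and 81.6 units in E2. Its groups did not overlap, and the difference was 0.68 ± 0.20 (adjusted p = 0.240 by limma). Pdha1, a subunit of pyruvate dehydrogenase, had -0.19, and Pcx, pyruvate carboxylase, -0.33.

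The pentose phosphate pathway, which branches off from glycolysis, had 6 genes tested, 0 past the test, and a median of -0.05. Rpia, its ribose isomerase, had the smallest p, with a difference of -0.57 and no overlap (unadjusted p = 0.0290 and adjusted p = 0.564 by limma). Tkt, transketolase, had -0.10. Of 6 genes of gluconeogenesis and further glucose transport, 0 passed, and the median was -0.09. Eno3, the muscle enolase, had -0.45 without overlap (adjusted p = 0.592 by limma), against 0.23 for Eno2. G6pc3, a glucose phosphatase, had -0.25.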

How the data were processed

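RNA from 3 control and 3 E2 samples was read on Affymetrix mouse arrays, with groups and replicate numbers taken from the labels. The deposited intensity values are linear signals that the authors made from scanned images with the array maker's GeneChip Operating Software and Expression Console, without stated versions, algorithm, background correction or genome build. Array medians differed by up to 1.59 times, so each array was scaled to their mean. Of 22690 probe sets, 64 controls were left out and 8403 fell below a mean of 10 units, as deposited, in both groups. This is the limit in the study's methods, as are the 1.5-fold change and unadjusted p of 0.05. The log2 values of the other 14223 were fitted in R 4.3.3 with limma 3.58.1 (lmFit, eBayes with trend, E2 minus control, two-sided, Benjamini-Hochberg threshold 0.05), a fit tested on simulated data. The methods name no test for these arrays.

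Symbols came from the platform annotation, updated through gene identifiers. Where a gene had several probe sets, the brightest by mean log2 signal stood for it. Values by array were printed for genes with an unadjusted p under 0.05 or no overlap, for the 5 brightest and for forms of the same enzyme. From the other lists, genes past the threshold and up to 3 of the smallest p were named; Arnt, Vhl, Egln2 and Car9 were added after their values were seen. Members and lists were chosen with earlier results of these data known. Same-numbered samples did not deviate together (correlations of 0.01, -0.05 and -0.06), so no pairing was used. Alternatives changed the scaling, low values, filter, variance model, pairing and arrays used. The number of arrays limits the precision.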

Additional observations from a re-analysis of the deposited data

How the results depend on the processing

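None of the 34 genes fell under any of the 17 alternatives tried, and the number that rose was 2 with quantile normalization (Ldha and Pfkl), 1 with scaling to a trimmed mean and 1 with array weights (Pfkl in both), and 0 in the others by limma. The median difference of the genes was 0.29 on the values as deposited, where the median of all genes was 0.03 against -0.03 after scaling, and 0.18 to 0.25 with each array left out in turn. The glycogen median was 0.10 with a filter at 100 units and 0.13 to 0.21 with each array left out, the lowest without control replicate 2. Genes past 1.5-fold, higher, numbered 0 to 2 with each array left out, and the 2, without E2 replicate 1, were Bnip3 and Egln3.

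Probe sets called over the whole array numbered 106, and 46 as deposited, 16 without the variance trend, 184 with array weights, and 56 to 105 with each array left out (56 without E2 replicate 1, 58 without control replicate 3, 68 without control replicate 2). Of those called, 66.0% were higher in E2, against 84.8% as deposited and 93.8% without the trend. With the replicate number as a block, 88 were called, 61 higher and 27 lower, and 0 of the 34 genes. The cause of these shifts was not tested.

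Of 860 comparisons of 52 named genes with an alternative, 833 kept their direction and side of the threshold, 2 lost and 11 gained a call, and 14 turned in direction, none of them past the threshold in either direction. With each array left out in turn the difference ran from -0.28 to 0.13 for Slc2a3, -0.19 to 0.0091 for Pfkm, -0.068 to 0.23 for Aldoc, -0.040 to 0.13 for Pgam1, -0.058 to 0.13 for Pdk3, -0.043 to 0.32 for Pgls and -0.35 to 0.10 for Slc2a10. With the pair of arrays of high 18S signal left out it was 0.0044 for Slc2a3, 0.074 for Pfkm and 0.022 for Ldhb.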
